A study of Mus musculus with 6 samples.

Results

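HTG1 is a haploid mouse embryonic stem (ES) cell line of mixed transgenic strain, and its single array was set against the arrays of 2 other haploid ES cell lines, HAP1 and HAP2. The arrays were picked by their titles, 3 of the 6 in the series. HTG1 was at passage 11, HAP1 at passage 24 and HAP2 at passage 21, and HAP1 and HAP2 were of the F1 CBAxB6 strain. The 3 diploid ES cell arrays, from male lines of strain 129Sv (replicates 1 and 2) or 129 (replicate 3), served as reference only. RNA of all 6 samples came from cells in 2i medium on day 2 after passaging, and 1 Affymetrix 430 array was run per sample. Each haploid line gave 1 array, the labels do not name the transgene of HTG1, and line, strain and passage cannot be told apart. The medians of the 6 arrays lay between 6.31 and 6.34 on the log2 scale, and the actin control probe sets read higher at the 3' than at the 5' end by 0.18 to 0.24 in the haploid arrays and 0.34 to 0.46 in the diploid arrays. The CreX spike controls read 14.48 to 14.66 (3' end) and 14.13 to 14.51 (5' end) in the diploid arrays. In the haploid arrays they read 13.52 to 13.68 and 13.13 to 13.30. The cause was not tested, and it limits comparisons with the diploid arrays. Across genes, HTG1 correlated with HAP1 at r = 0.986 and with HAP2 at r = 0.988, against 0.990 between HAP1 and HAP2 and 0.971 to 0.974 between HTG1 and the diploid arrays; genes are not independent replicates.

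Haploid ES cells carry 1 copy of each chromosome and can be derived from activated oocytes, as is known from the literature. Such cells have no paternal genome, so genes that are normally read only from the paternal copy are a natural group to look at, as are X-linked and Y-linked genes. 2i medium holds inhibitors of the MEK and GSK3 kinases, which keep ES cells in the naive state and silence ERK target genes. A rare state of ES cells shares genes with the embryo at its two-cell stage, among them the Tcstv, Zscan4, Usp17l and Zfp352 genes.

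HTG1 stood apart from HAP1 and HAP2 by a small set of strong differences. Its cells had higher levels of a cluster of two-cell-embryo genes on chromosome 13, of 4 paternally expressed imprinted genes led by Peg3 and Mest, and of several ERK-responsive genes. Lower levels were found for the homeobox genes Otx2 and Crxos and for 3 neighbouring Rhox genes. Of the pluripotency genes, Pou5f1, Nanog, Klf4 and Esrrb were within 0.12 (log2) of the HAP mean. Sox2 differed by 0.26, and Dppa3 was lower (-1.42).

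A gene was represented by its probe set with the highest mean over the 6 arrays, which gave 18193 genes. It was called different where HTG1 differed from the mean of HAP1 and HAP2 by at least 1 on the log2 scale (2-fold) and lay farther from the nearer HAP array, outside both, than the HAP arrays lay from each other. Of all genes, 307 (1.69%) met this rule, 170 higher (0.934%) and 137 lower (0.753%) in HTG1. These shares are the background for each count of called list members given below. Another 103 genes differed by at least 2-fold but failed the gap criterion. The threshold cut through a continuous range, with 58 genes between 1 and 1.1 and 73 genes between 0.9 and 1 in absolute difference. Differences of 8-fold or more were found for 15 higher and 4 lower genes. The median absolute difference of HTG1 from the HAP mean was 0.147, close to the median HAP1 to HAP2 gap of 0.146. Differences of at least 2-fold between single arrays numbered 569 genes (3.13%) for HTG1 against HAP1, 437 (2.4%) for HTG1 against HAP2 and 360 (1.98%) for HAP1 against HAP2. In a limma fit over the 6 arrays, in which the lone HTG1 array is assumed to vary like the others, 68 genes passed an adjusted p of 0.05, 44 higher (0.242%) and 24 lower (0.132%). At an unadjusted p under 0.05 there were 1669 genes. The 68 were all among the 307 called genes. This count leans on single arrays: 25 of the 68 still passed without diploid replicate 3, 33 without replicate 2 and 53 without replicate 1. With HAP1 or HAP2 left out, all spread comes from the diploid arrays, so such fits do not test spread between haploid lines. Diploid replicates 2 and 3 differed by at least 2-fold in 18 genes (0.0989%), against the 360 of HAP1 and HAP2. Diploid replicate 1 differed from replicates 2 and 3 in 270 and 223 genes.

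**Figure D1:**
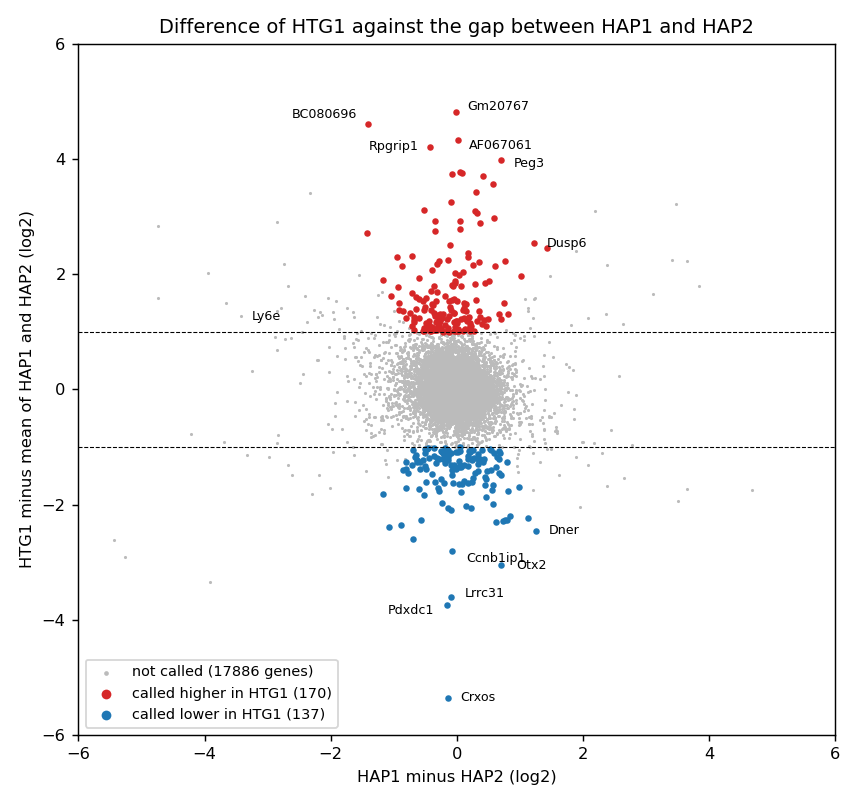
Each point is 1 of the 18193 genes, with the HAP1 minus HAP2 difference on the x axis and the difference of HTG1 from the HAP mean on the y axis, both in log2; dashed lines mark 2-fold. The 170 genes called higher (red) and the 137 called lower (blue) lie above and below the centre, while Ly6e, far to the left, differs more between HAP1 and HAP2 than HTG1 does from their mean.

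Against the diploid reference, 109 of the 170 higher genes (64.1%) had HTG1 at least 1 beyond the range of the 3 diploid arrays on the same side, so that HTG1 stood apart from all 5 other arrays. Of the other higher genes, 13 (7.65% of the 170) had the mean of HAP1 and HAP2 at least 1 away from the diploid range, with HTG1 nearer to it. Mest, Impact and Dusp6 are examples. Genes that met both conditions, such as Peg3, were counted in the first class only. Among the 137 lower genes these counts were 55 (40.1%) and 26 (19%). The Rhox genes, Dppa3 and Id2 belong to the 26.

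Two-cell-embryo genes had the largest median difference of the gene lists used here, which were chosen with earlier results of these data known. Of 34 listed genes 7 had a measured probe set with 1 symbol. Of these, 6 were called higher and none lower, against 0.934% of all genes called higher. The median difference was 2.97 against -0.01 over all genes. AF067061 read 7.86 in HAP1, 7.84 in HAP2 and 12.17 in HTG1, with 7.02 to 7.32 in the diploid arrays, a difference of 4.32 ± 0.17 (SE, limma adjusted p = 0.00108), or 20-fold. Tcstv1, a gene of the two-cell-stage variable group, read 5.20, 5.12 and 8.92 in HAP1, HAP2 and HTG1 and at most 3.51 in the diploid arrays (3.76 ± 0.14, limma adjusted p = 0.00108). HTG1 was thus far above all other arrays for both genes, and HAP1 and HAP2 differed from each other by less than 0.09. Tcstv3 read 4.39, 3.81 and 7.07 (difference 2.97, limma adjusted p = 0.0107, and 0.0613 without diploid replicate 3). Usp17la, a deubiquitinating enzyme, read 6.55, 7.07 and 9.93 with 5.69 to 5.78 in the diploid arrays (3.12, limma adjusted p = 0.00557). Zfp352, a zinc finger gene, was at 5.76, 5.80 and 7.67 (1.89, limma adjusted p = 0.00822, and 0.0548 without diploid replicate 3), and its second probe set gave 1.96. The smallest of the called differences was that of Tdpoz1, at 1.10, and it did not pass limma. Duxf3, from the Dux family of transcription factors that act at the start of this programme, differed by 0.36 and was not called. The Zscan4 genes lack a probe set that carries 1 symbol, and no value is given for them.

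The chromosome 13 members are neighbours in the RefSeq gene order. Among all measured genes with a position, 7 in a row at the end of chromosome 13 were called higher: AF067063, D13Ertd608e, Tcstv1, Gm20767, AF067061, BC147527 and Tcstv3, the last of the 702 measured genes of that chromosome. This search over all measured genes was added after the data were seen, and the search over genes above the median level found 0 runs of 3 or more; AF067063, D13Ertd608e and BC147527 were named after their values were seen. Gm20767 had the largest difference of any called higher gene here, from 4.89 in HAP1 and 4.90 in HAP2 to 9.71 in HTG1 (4.82 ± 0.29, 28.2-fold, limma adjusted p = 0.00284). BC147527 was near the bottom of the scale in the 5 other arrays, between 3.37 and 3.50, and read 6.22 in HTG1 (2.78, limma adjusted p = 0.002). AF067063 and D13Ertd608e differed by 2.16 and 1.84, and their limma adjusted p of 0.013 and 0.0285 became 0.0548 and 0.115 without diploid replicate 3. The genes of this cluster are similar in sequence, so a probe set may read more than 1 of them, and the number of genes that differ cannot be told from these values. All of them were also at their highest in HTG1 when compared with the diploid arrays.

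For 2 of these neighbours the 250 bases before the RefSeq start site (build GRCm38.p6) are shown to set them beside the promoters of the imprinted genes below, with each CG, the site of DNA methylation, in capitals. AF067061 lies at chr13:120262845-120263094 and BC147527 at chr13:120300142-120300391, both on the plus strand.
AF067061: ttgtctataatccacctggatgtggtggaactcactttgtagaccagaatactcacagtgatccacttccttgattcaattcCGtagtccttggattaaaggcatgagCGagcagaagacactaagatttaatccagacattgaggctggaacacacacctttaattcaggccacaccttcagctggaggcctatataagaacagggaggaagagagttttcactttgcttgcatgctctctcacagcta
BC147527: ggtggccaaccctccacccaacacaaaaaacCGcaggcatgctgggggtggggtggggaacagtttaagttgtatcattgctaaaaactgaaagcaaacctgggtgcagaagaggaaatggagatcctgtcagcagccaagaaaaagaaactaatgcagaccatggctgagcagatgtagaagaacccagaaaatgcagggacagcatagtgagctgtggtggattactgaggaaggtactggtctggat
These windows hold 2 and 1 CG, and 81.7% and 92.3% of the 27025 genes with a window hold at least as many. Each gene was counted by its window with the most CG, and the median over these genes is 6. A count of CG letters says nothing on whether a site was methylated here.

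Some genes outside that list behaved alike in these arrays. Pramel18, a member of the Prame-like family, was near 4 in both HAP arrays (4.18 and 4.25) and 7.96 in HTG1 (3.74 ± 0.15, limma adjusted p = 0.00108). In the diploid arrays it was between 3.69 and 3.88. Of the 11 measured Pramel genes, Pramel18 and Pramel7 were called higher and none lower, and the family median was 0.04. Pramel7 read 6.84, 7.17 and 8.30 (1.30, limma adjusted p = 0.207), and its second probe set differed by only 0.09. Ubtfl1, an HMG-box gene of the early embryo, rose from 3.57 and 3.29 to 6.53 (3.11, limma adjusted p = 0.002). BC080696 differed by 4.62, but HAP1 and HAP2 were themselves 1.40 apart (4.27 and 5.67, against 9.59 in HTG1). Its limma adjusted p of 0.0312 became 0.0753, 0.119 and 0.151 without diploid replicate 1, 2 or 3.

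**Figure D2:**
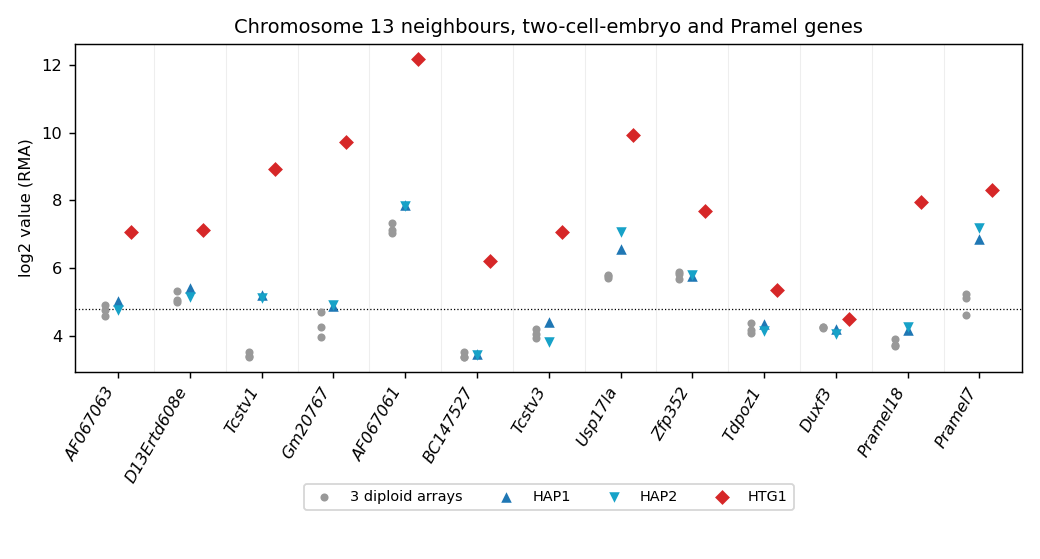
Log2 values of each array for the 7 neighbouring genes of chromosome 13 (left), 4 further two-cell-embryo genes and 2 Pramel genes; the dotted line is the lowest of the arrays' lower quartiles, at 4.80. The HTG1 diamond is above the 5 other arrays for every gene plotted, least for Duxf3, and of the chromosome 13 genes AF067061 alone has HAP values well above the dotted line.

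Imprinted genes were the next group. Of 29 listed paternally expressed genes 24 were measured, of which 4 were called higher and 1 lower, with a median of 0.33; 3 of the 4 passed limma. Over the same 24 genes the HAP1 minus HAP2 median was 0.27, close to the list median. The median HAP gap was 0.47, which ignores direction and is not a like measure to the list median. Peg3, a zinc finger gene, read 7.80 in HAP1, 7.10 in HAP2 and 11.43 in HTG1, against 9.36 to 9.78 in the diploid arrays. Its difference was 3.98 ± 0.32 (15.8-fold, limma adjusted p = 0.00872), and the other probe sets of Peg3 with a level above the bottom of the scale gave 3.47 and 3.30. HTG1 was thus above the diploid arrays for Peg3, while both HAP arrays were below them. Mest, an enzyme of the alpha/beta hydrolase fold, read 6.88, 6.58 and 10.15, with 10.85 to 11.46 in the diploid arrays (3.42 ± 0.28, 10.7-fold, limma adjusted p = 0.00872). For Mest the HTG1 level came within 1 of the diploid range and did not reach it. Impact, a regulator of the GCN2 kinase, was 9.74, 9.14 and 11.59, inside the diploid range of 11.41 to 11.74. Its difference of 2.15 had a limma adjusted p of 0.0491, which became 0.0778, 0.148 and 0.182 without diploid replicate 1, 2 or 3, and its other probe sets, which were dimmer, differed by 0.08 and 0.06. Zdbf2 read 8.61, 7.84 and 10.45 (2.23, limma adjusted p = 0.318), with diploid arrays from 8.43 to 9.90.

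The remaining paternally expressed genes were mixed. Mcts2, Kcnq1ot1 and Sgce were higher by 1.36, 1.24 and 1.06, but HAP1 and HAP2 were 1.12, 1.21 and 1.15 apart, so none was called. For these 3 genes HAP2 was the lowest of the haploid arrays and HTG1 the highest. Inpp5f did not share the pattern: it was 6.64 and 6.34 in the HAP arrays and 6.46 in HTG1, all far below the diploid arrays at 9.01 to 9.21. Snrpn and Peg10 both differed by 0.46 and Igf2, a growth factor, by 0.30, none of them called. Slc38a4, an amino acid transporter, was called lower, from 10.68 and 11.86 to 9.46 (-1.81, limma adjusted p = 0.31). Of 20 maternally expressed genes 19 were measured, 2 were called higher and 1 lower, the median was -0.06, and none passed limma. Mirg and Rian, long RNAs of the Dlk1 to Dio3 region, were higher by 1.20 and, close to the threshold, 1.003, and Meg3 of the same region by 0.41. Grb10, an adaptor of growth factor receptors, was lower (-1.06); its diploid arrays ran from 9.02 to 11.15, which spans the HTG1 value of 10.01.

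Promoters of the imprinted genes with the largest differences are shown because imprinted promoters are regulated by CG methylation, which was not measured here. The 250 bases before the start are at chr6:30737800-30738049 on the plus strand for Mest, whose window with the most CG of its 3 was taken, and at chr7:6730420-6730669 on the minus strand for Peg3, again with each CG in capitals.
Mest: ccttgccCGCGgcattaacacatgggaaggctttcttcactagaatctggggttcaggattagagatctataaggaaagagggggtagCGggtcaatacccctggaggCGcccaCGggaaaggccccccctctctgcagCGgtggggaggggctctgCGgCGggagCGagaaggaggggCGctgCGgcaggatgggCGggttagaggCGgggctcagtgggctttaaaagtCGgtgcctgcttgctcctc
Peg3: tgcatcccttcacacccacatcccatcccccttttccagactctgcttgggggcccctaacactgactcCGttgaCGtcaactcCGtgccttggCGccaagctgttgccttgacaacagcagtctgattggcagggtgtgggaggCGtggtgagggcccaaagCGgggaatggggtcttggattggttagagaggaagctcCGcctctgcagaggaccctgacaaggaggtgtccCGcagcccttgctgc
They hold 14 and 8 CG, and 31.7% and 45.5% of the genes with a window hold at least as many, each counted by its window with the most CG. Both windows therefore have more CG than the windows of AF067061 and BC147527.

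**Figure D3:**
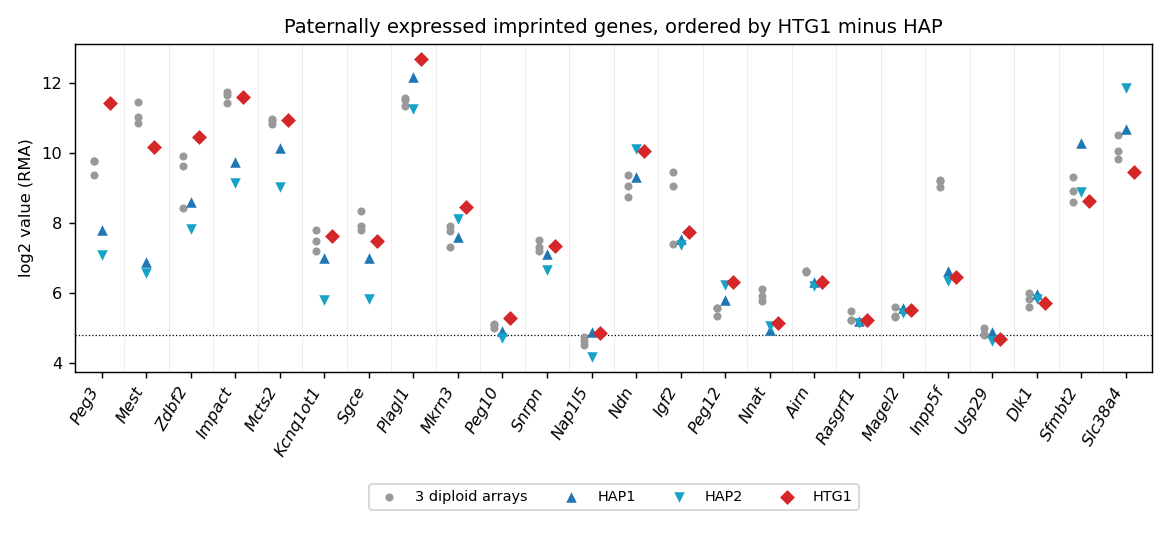
Log2 values of each array for the 24 measured paternally expressed genes, ordered by the difference of HTG1 from the HAP mean; the dotted line is at 4.80. Peg3, Mest, Zdbf2 and Impact at the left have HTG1 well above both HAP arrays, Inpp5f has all 3 haploid arrays below the diploid ones, and Slc38a4 at the right has HTG1 lowest.

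Markers of the naive state hardly differed. Of 32 listed core and naive pluripotency genes 31 were measured, none was called higher and 1 lower, with a median of 0.11. Pou5f1 was 13.91, 13.88 and 14.01 in HAP1, HAP2 and HTG1, and Nanog 13.69, 13.72 and 13.69. Sox2 differed by 0.26, Klf4 by 0.0046 and Esrrb by 0.02. The called gene was Dppa3, known as Stella, a protein of the oocyte and of germ cells, at 12.51, 12.03 and 10.85 (-1.42, limma adjusted p = 0.402). For Dppa3 the diploid arrays were lower still, at 8.75 to 9.77, so HTG1 lay between the groups. Tfcp2l1, a transcription factor of the naive network, was lower (-0.64) and not called.

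In the list named formative and primed epiblast, Crxos and Otx2 stood out. That Crxos marks this state was not tested. Of 17 measured genes 2 were called higher and 2 lower, with a median of 0.09. Crxos, a homeobox gene transcribed opposite Crx, read 9.98 and 10.12 in the HAP arrays, 10.68 to 12.04 in the diploid arrays and 4.69 in HTG1. The HTG1 value is below the lowest lower quartile of the arrays (4.80) and was not shown to be above background, so no fold is given. The measured difference was -5.36 ± 0.50, and its limma adjusted p was 0.0146 (0.0949 when diploid replicate 3 was left out). Its second probe set gave -1.23. Otx2, a homeobox factor of the epiblast, read 10.25, 9.55 and 6.84 (-3.06 ± 0.31, 8.33-fold, limma adjusted p = 0.0206), with 8.96 to 9.34 in the diploid arrays. Leaving out diploid replicate 1, 2 or 3 gave Otx2 a limma adjusted p of 0.05, 0.066 and 0.115. HTG1 was the lowest array for both genes by a wide margin. Other genes of the list did not go with them: Fgf5 differed by 0.19, Dnmt3b by -0.02, Dnmt3a by -0.09 and Pou3f1 by -0.02. Cldn6 and Sall2 were called higher at 1.01 and 1.06, close to the threshold, and fell below it without HAP1 (0.75 and 0.80). Sox11 was higher by 2.40, but HAP1 and HAP2 were 1.88 apart and it was not called.

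ERK-responsive genes were higher in the main. All 18 listed genes were measured, 5 were called higher and 2 lower, against 0.934% and 0.753% of all genes. Above the HAP mean lay 14 of the 18, against 8612 of all 18193 genes. The median was 0.46, against a HAP1 minus HAP2 median of -0.07 for the list. The median HAP gap of the list was 0.35, which ignores direction and is not a like measure. Dusp4, a phosphatase that switches off ERK, was 6.28 and 6.35 in the HAP arrays and 8.13 in HTG1, with 6.29 to 6.51 in the diploid arrays (1.81 ± 0.15, limma adjusted p = 0.0104, and 0.0534 and 0.0536 without diploid replicate 2 or 3). Dusp6, a phosphatase of the same kind, was 7.20, 5.98 and 9.13 (2.54, limma adjusted p = 0.152). The HAP arrays were below the diploid range of 8.16 to 8.68 for Dusp6, and HTG1 was above it. Myc differed by 1.15, Phlda1 by 1.11 and Dusp5 by 1.08, none passing limma. The feedback genes Spry2 and Spry1 differed by 0.93 and 0.75, below the threshold. Immediate early genes went the other way or nowhere: Fos (-1.27) and Ier3 (-1.40) were lower, while Egr1 differed by 0.04. Without HAP2 the differences of Fos and Ier3 were -0.98 each, under the threshold. For Fos and Egr1 the diploid arrays were themselves far apart, from 7.90 to 10.67 and from 6.28 to 12.81.

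**Figure D4:**
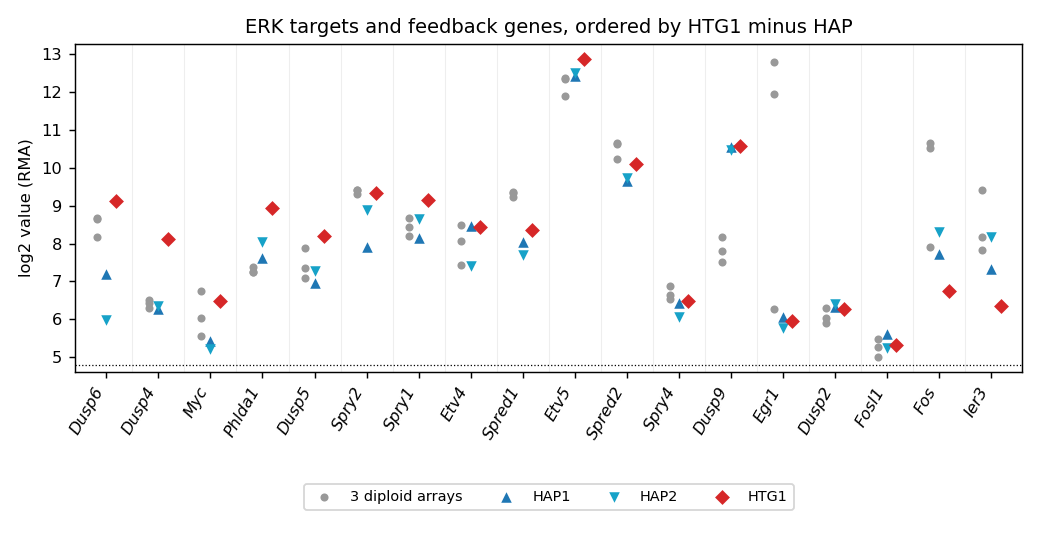
Log2 values of each array for the 18 ERK targets and feedback genes, ordered by the difference of HTG1 from the HAP mean; the dotted line is at 4.80. HTG1 lies above both HAP arrays from Dusp6 to Spry1 at the left and below them for Fos and Ier3 at the right.

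Cell cycle regulators and Id genes were described in further lists. Ccnd1, the D-type cyclin of the G1 phase, read 10.14, 9.39 and 11.27, a difference of 1.51, and its other probe sets gave 0.92 and 1.29. Cdk6, a partner kinase of D-type cyclins, was 5.90, 6.59 and 7.46 (1.21), below the diploid arrays at 8.62 to 9.33. The other probe sets of Cdk6 differed by 0.72 and 0.10, and its difference was 0.87 without HAP1, under the threshold. These were the 2 called members of the 19 G1 regulators, and none passed limma. Id2 and Id3, inhibitors of basic helix-loop-helix factors, differed in opposite directions, by -1.12 and 1.15. Dnmt3l, a cofactor of the de novo DNA methyltransferases, was the single called member of 18 methylation and silencing genes. It read 9.63, 8.93 and 10.50, against 10.61 to 11.27 in the diploid arrays. Its difference was 1.22 (limma adjusted p = 0.362), and 0.87 without HAP2, under the threshold.

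Reproductive homeobox (Rhox) genes of the X chromosome were lower in HTG1. Of 4 measured Rhox genes 3 were called lower, and these 3 were neighbours among all measured genes. Rhox5 read 13.48, 13.30 and 12.24 (-1.16), Rhox6 9.88, 9.11 and 7.23 (-2.27), and Rhox9 9.10, 8.38 and 6.45 (-2.29). For Rhox6 and Rhox9 the HTG1 level was near that of the diploid arrays, which were at 6.22 to 7.08 and 6.25 to 6.50. None of the 3 passed limma, with adjusted p values of 0.486, 0.15 and 0.0553. Rhox13 differed by -0.50. In the wider germ line list, 27 of 31 genes were measured, 1 was called higher and 6 lower, the Rhox genes included. Ddx4, an RNA helicase of germ cells, was lower (-1.22), and so were Mael, of transposon silencing, and Tex11, of meiosis (-1.11 each). Hormad1, a protein of meiotic chromosome axes, was higher by 1.15. The median of the germ line list was 0.06.

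MHC class I genes were lower at some probe sets and not at others. Of 14 measured genes of antigen presentation none was called higher and 2 lower, with a median of -0.31. H2-K1 read 8.83, 8.96 and 6.84 (-2.06, limma adjusted p = 0.0411), and H2-D1 8.96, 9.05 and 7.51 (-1.49, limma adjusted p = 0.227). Without diploid replicate 3 the limma adjusted p of H2-K1 was 0.169. The other probe sets of H2-K1 differed by -1.30, -0.07 and -0.25, and the 9 probe sets of H2-D1 ran from -1.49 to 0.98. These genes vary in sequence between mouse strains, HTG1 differs in strain from HAP1 and HAP2, and the part of sequence differences in probe binding was not tested. B2m, the shared light chain, differed by -0.43 and the peptide transporter Tap1 by -0.37. Of 29 measured interferon-response genes Ifitm1 alone was called, lower (-1.35).

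Single genes with strong differences came from many functions. Rpgrip1, a protein of the photoreceptor cilium, was 7.03, 7.47 and 11.46 (4.21 ± 0.23, 18.5-fold, limma adjusted p = 0.00239), and its other probe sets gave 1.25, 0.07 and 0.29. Slc4a3, an anion exchanger, was 7.50, 7.09 and 11.01 (3.71, limma adjusted p = 0.0028). The adhesion molecule Alcam was 4.86, 4.29 and 8.15 (3.57, limma adjusted p = 0.0055), and 3 of its other 4 probe sets lay between 2.30 and 2.90. HTG1 was above all 5 other arrays for each of these 3 genes. Tmem45a2 differed by 3.77 (limma adjusted p = 0.0028). Frem2, a basement membrane protein, differed by 3.07 with a limma adjusted p of 0.0285 that became 0.144 without diploid replicate 3. 3110040M04Rik differed by 3.26 (limma adjusted p = 0.00811, and 0.0536 without diploid replicate 3). Grhl2, an epithelial transcription factor, was higher by 2.24 at its brightest probe set (limma adjusted p = 0.143), and the others differed by -0.07, 0.25 and -0.27.

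Lower levels were found for genes of varied function. Pdxdc1, a decarboxylase-like enzyme, was 9.76, 9.92 and 6.09 (-3.75 ± 0.19, 13.5-fold, limma adjusted p = 0.002). Its other probe sets differed by -1.51 and -1.42, and by 4.21 in the opposite direction, so the direction for this gene depends on the probe set. Lrrc31, a leucine-rich repeat protein, was 9.28, 9.38 and 5.72 (-3.61, limma adjusted p = 0.002), and Ccnb1ip1, a ligase that acts at meiotic crossovers, was 10.46, 10.54 and 7.69 (-2.81, limma adjusted p = 0.002). HTG1 was below all 5 other arrays for these 3 genes. Cyct, the testis form of cytochrome c, was lower (-2.61), with a limma adjusted p of 0.0289 that became 0.0663, 0.115 and 0.129 without diploid replicate 1, 2 or 3. Elovl7, an elongase of fatty acids, was lower at all 6 of its probe sets, from -2.39 to -0.96. Desmoplakin (Dsp), a protein of desmosomes, was 8.98, 10.05 and 7.13 (-2.38), keratin Krt7 8.32, 8.10 and 6.14 (-2.07) and the phospholipid-binding Anxa1 10.11, 9.41 and 8.27 (-1.49). None of Dsp, Krt7 and Anxa1 passed limma, and of the 18 measured epithelial adhesion genes 2 were called higher and 2 lower (median -0.02). Dner, a Notch ligand-like protein, Scn3a, a sodium channel, the bHLH factor Msc, Krtdap and Ahnak2 were lower, at -2.46, -2.31, -2.24, -2.28 and -2.28, and none of them passed limma.

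Of the 37 gene lists, 16 had no called member. They include lists of other cell types that a culture could hold. None of 20 primitive endoderm, 16 fibroblast, 14 neural ectoderm and 16 Nodal and mesendoderm genes was called, with medians of -0.03, 0.00, -0.04 and -0.06. The mean level of the fibroblast markers was 5.72 in HAP1, 5.60 in HAP2, 5.73 in HTG1 and 6.15 to 7.13 in the diploid arrays. For trophoblast genes 1 of 14 was called, Krt7, and Cdx2 and Eomes differed by 0.03 and -0.17. The Y-linked Eif2s3y was 3.38, 3.88 and 3.97 in HAP1, HAP2 and HTG1, against a mean of 10.13 ± 0.15 (SD, n = 3) in the male diploid lines. No called gene was found among 26 p53 targets (median -0.08), 18 mitosis genes (-0.09) or 49 cytosolic ribosomal proteins (0.01). Over the 20 chromosomes, the median difference of the genes above the median level stayed between -0.03 and 0.05.

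**Figure D5:**
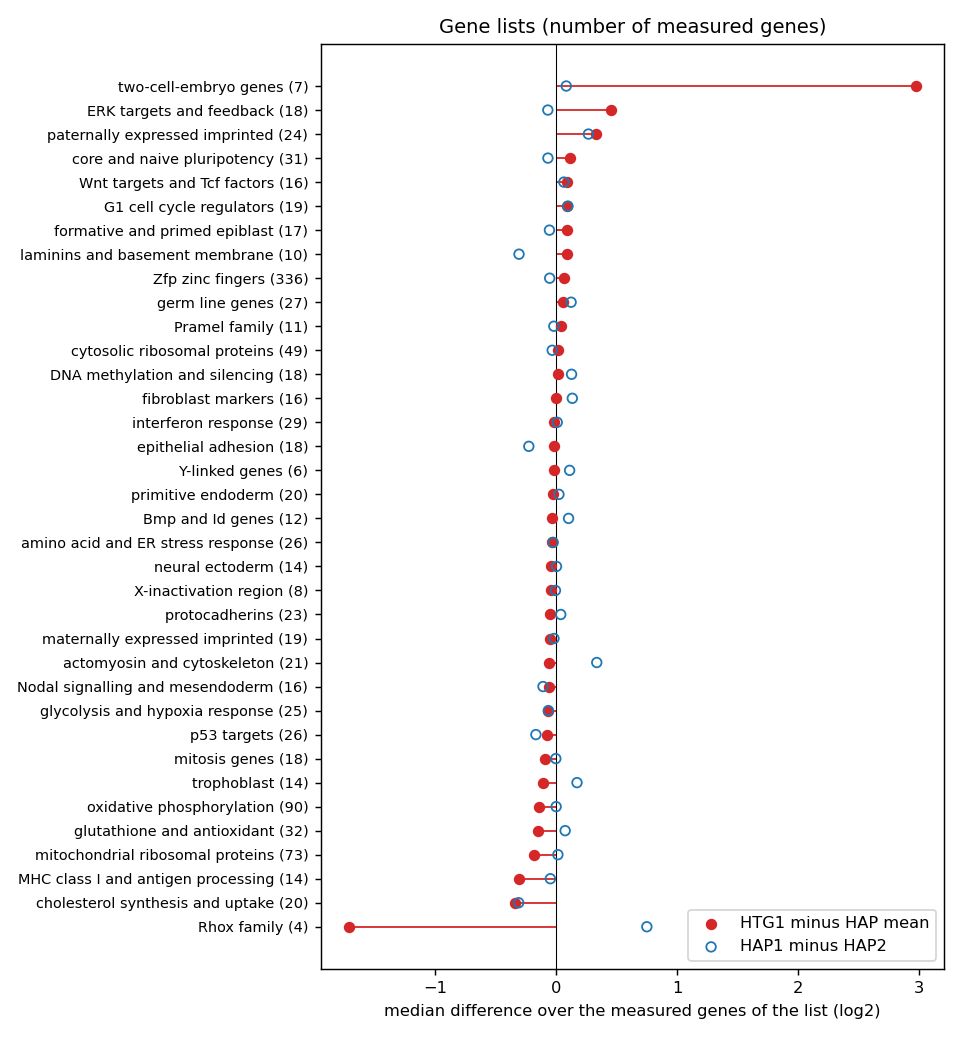
Median difference of HTG1 from the HAP mean (red) and of HAP1 from HAP2 (blue circles) for each gene list with at least 4 measured genes, in log2, with the number of measured genes in brackets. The two-cell-embryo genes at 2.97 and the Rhox genes at -1.71 lie far from 0, and the medians of all other lists shown lie between -0.34 and 0.46.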

How the data were processed

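The authors deposited log2 values. The submitters' processing notes name RMA; its settings are not given in the sources used here. RMA sets arrays to one distribution, so every difference is relative to the bulk of genes. The table held 45101 probe sets. After 64 control probe sets were left out, GEO's platform annotation gave 34945 of the rest 1 symbol, 932 several and 9160 none; 34741 matched RefSeq (GRCm38.p6). Differences, gaps and calls were computed in Python 3.11.15. Tests were run with limma 3.58.1 under R 4.3.3 (lmFit, then eBayes; 3 groups, 3 residual degrees of freedom, two-sided, Benjamini-Hochberg over 18193 genes), tested on simulated data. Its p-values measure the spread between these arrays; their number limits the precision. Named genes were the 15 called genes with the largest difference in each direction whose brighter side exceeded 4.80, up to 4 called members of each list (or the 2 brightest where none was called), members of neighbour runs, and a fixed set of pluripotency genes with Eif2s3y; members of lists named for contrast, and genes at thresholds, were chosen after their values were seen. The groups and lists were chosen with earlier results of these data known. Alternatives varied normalization, probe set choice, thresholds and arrays.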

Additional observations from a re-analysis of the deposited data

How the results depend on the processing

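The HTG1 side rests on 1 array, so no setting tests its own error, and dim genes give compressed differences. The main counts were 170 higher and 137 lower by the 2-fold rule and 44 and 24 by limma. A 1.5-fold threshold gave 479 and 407 and a 4-fold threshold 40 and 20. Every probe set taken on its own gave 287 and 212. Among genes above the median level 71 were called higher and 97 lower, which turns the balance of the main counts, and limma called 11 and 15. Leaving out 1 array moved the 2-fold counts to between 205 and 337 higher and to 232 lower, where the gap criterion falls away with a HAP array left out; without HAP1 they were 205 and 232, and without HAP2 337 and 232. The limma counts ranged from 21 to 81 higher and from 4 to 42 lower: 81 and 42 without HAP2, 26 and 7 without diploid replicate 2, and 21 and 4 without diploid replicate 3. The cause was not tested. Quantile normalization, aligned medians and the chromosome correction moved no count by over 1.5 times. Of 67 called genes followed one by one, 0 reversed in 502 values, which hold 1 value per gene and setting. They could not show a reversal at another probe set, such as that of Pdxdc1 at 4.21. Of the 67, 48 stayed at or above 2-fold and 19 fell below it in at least 1 setting. Among the 19 were Impact (0.76), Pdxdc1 (-0.62), Grhl2 (0.54) and H2-K1 (-0.92) when all probe sets of a gene were averaged. No paired analysis was possible because HTG1 is a single array and the replicate numbers only name lines.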

Other observations

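Some lists without a called member had most of their genes on one side of the HAP mean, which was not tested. Of 73 mitochondrial ribosomal proteins 14 lay above the HAP mean, with a median of -0.18, against a HAP1 minus HAP2 median of 0.01. Of 90 oxidative phosphorylation genes 11 lay above it, with a median of -0.15 against -0.0015 between the HAP arrays. Over all genes the median was -0.01, and 8612 of 18193 lay above the HAP mean. The median absolute difference of single genes was 0.147, which ignores direction and is not a like measure to a list median. No member of either list was called or passed limma. Mrpl15, a protein of the large mitochondrial ribosomal subunit, read 12.81 in both HAP1 and HAP2 and 12.33 in HTG1 (-0.48, limma adjusted p = 0.318). Cholesterol synthesis genes also had a negative median, -0.34, but the HAP arrays differed from each other by -0.31 in the same list. Zinc finger genes named Zfp numbered 336, of which 5 were called higher and none lower; that is 1.49% called higher, near the 0.934% of all genes. Zfp560 was 7.34, 7.74 and 9.25 in HAP1, HAP2 and HTG1 (1.71), and Zfp809, a silencer of retroviral sequence, 8.78, 9.05 and 10.11 (1.19), neither passing limma.

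A few genes, chosen after their values were seen, put HTG1 with 1 of the 2 HAP lines. Olig2, a bHLH factor of neural progenitors, read 3.47 in HAP1, 8.20 in HAP2 and 8.68 in HTG1, and 3.49 to 4.04 in the diploid arrays. Ly6e, a cell surface protein, read 9.95, 13.38 and 12.94. For both genes HAP1 was near the diploid arrays and HAP2 near HTG1. Also chosen after the values were seen, Rbm45, an RNA-binding protein, read 8.54, 8.19 and 10.58, inside the diploid range of 10.48 to 10.65 (2.22, limma adjusted p = 0.0106, and 0.0588 without diploid replicate 3). On chromosome 14, Ang, a secreted ribonuclease, read 5.37, 5.47 and 7.93 (2.51, limma adjusted p = 0.002) and lay between Ccnb1ip1, which was lower in HTG1, and Rpgrip1, which was higher, with 9 and 14 measured genes in between.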
